A study of Mus musculus with 24 samples.

Results

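The Hedgehog pathway genes Gli1, Gli2, Gli3, Ptch1, Smo, Ihh, Dhh, Hhip and Sufu were followed in mammary tissue of 24 female mice. They were taken by gene name from the array's own annotation, which gave 14 probes for these 9 genes among 55681 probes for 34797 gene names. Mice of the inbred strain BALB/c, and of SPRET/EiJ, an inbred strain of another mouse species (Mus spretus), received low-dose ionizing radiation (LDIR) as 1 whole-body X-ray exposure of 10 cGy at 8 to 9 weeks of age, or a sham exposure. BALB/c tissue was collected 2, 4 and 8 weeks later and SPRET/EiJ tissue 4 weeks later, which made 8 groups of 3 mice, 1 mouse to an array and 8 arrays to each of 3 slides. No engineered allele is named for any group.

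Hedgehog ligands (Ihh, Dhh and Shh) bind the receptor Ptch1, which otherwise holds the membrane protein Smo inactive. Free Smo lets the transcription factors Gli2 and Gli3 act at the primary cilium, where the cytoplasmic protein Sufu restrains them. Gli1, Ptch1 and Hhip, a membrane protein that captures ligand, are genes that the pathway itself switches on, so their level is often read as its output. In the embryonic mammary gland Gli3 keeps the pathway repressed so that buds can form, and in the postnatal gland Gli2 is found in the stroma. Dhh is known as the ligand that Schwann cells of peripheral nerves make.

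A level below is the log2 of a probe's intensity minus the 75th percentile of its array, so 0 is that percentile and each unit is a doubling. Levels of different probes are not comparable with each other. Over the 24 arrays 57.1% to 72.6% of probes were well above background by the scanner software's test, and the markers of mammary tissue were present: the mean level of 7 luminal epithelial genes was 0.47 to 4.93, that of 6 white adipocyte genes 4.97 to 7.50 and that of 6 fibroblast genes 4.56 to 6.53. On 3 arrays a list of 6 lymphocyte genes averaged 2.65 to 3.53, against -2.98 to -1.74 on the other 21. These were sham mouse A and LDIR mouse B of BALB/c at 8 weeks and LDIR mouse A of SPRET/EiJ, and results that rest on them are given with and without them. In whole tissue, fewer cells of a type and less RNA per cell cannot be told apart.

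Well above background on at least 23 arrays were 11 of the 14 probes. Gli1 and Hhip each had a dim second probe, above background on 1 and 5 arrays, the Ihh probe was above it on 17, and the Shh probe on none. Gli1, Hhip, Ptch1, Smo and Sufu had a pair of probes, ranked here by their mean level, and the members of a pair often did not move together. The middle 30 bases (bases 16 to 45 of 60) of the probes on which the results turn are shown because they show how unlike the members of a pair are in composition, with G and C in capitals:
Gli2: GaCtttGaGGaaCtCttaaCtGaatttGCt
Gli1 probe 1: CtatGtatGttCCaGGaaaGaaCaaaCttt
Ptch1 probe 1: atttGtaaaaGaaaaGatCtttGCtGatat
Ptch1 probe 2: aGaGGaGGGaCtCaaaGGtGGaGGtCataG
Smo probe 1: tCataGtGCCCCaCattCaaGaaCCaGaCa
Smo probe 2: CaCaCaCaGaCaCaCaCaCaCataCaCtCt
Sufu probe 1: CaaaCCtGtCCttCCaCCaatCaattCtCa
Sufu probe 2: aGtttGtaGaGaaGatGttGGaGGaCttaG
Hhip probe 1: tGtaGGttaataGtCttttGtCtCtGttaC
Ihh: GGGaGaattttGGGaatGttttGGtCtttC

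In the mm9 coordinates of the files these probes lay at chr1:120731255-120731314 on the minus strand (Gli2), chr10:126766967-126767026 on the minus strand (Gli1), chr13:63610298-63610357 and chr13:63612879-63612938 on the minus strand (Ptch1), chr6:29711225-29711284 and chr6:29710919-29710978 on the plus strand (Smo), chr19:46529259-46529318 and chr19:46558091-46558150 on the plus strand (Sufu), chr8:82494280-82494339 on the minus strand (Hhip) and chr1:74991906-74991965 on the minus strand (Ihh). Over their whole 60 bases the Ptch1 probes held 21.7% and 53.3% G and C. Probe 2 of Smo, only 306 bases from probe 1, held 18 CA dinucleotides against 8 in probe 1 and a median of 4 over all probes, and 0.00718% of the 55681 probes held as many. Deviations of paired probes from their group means over the 24 arrays correlated at 0.62 for Hhip and 0.48 for Sufu, at -0.01 for Ptch1, -0.02 for Gli1 and -0.37 for Smo, given as descriptions.

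**Figure D1:**
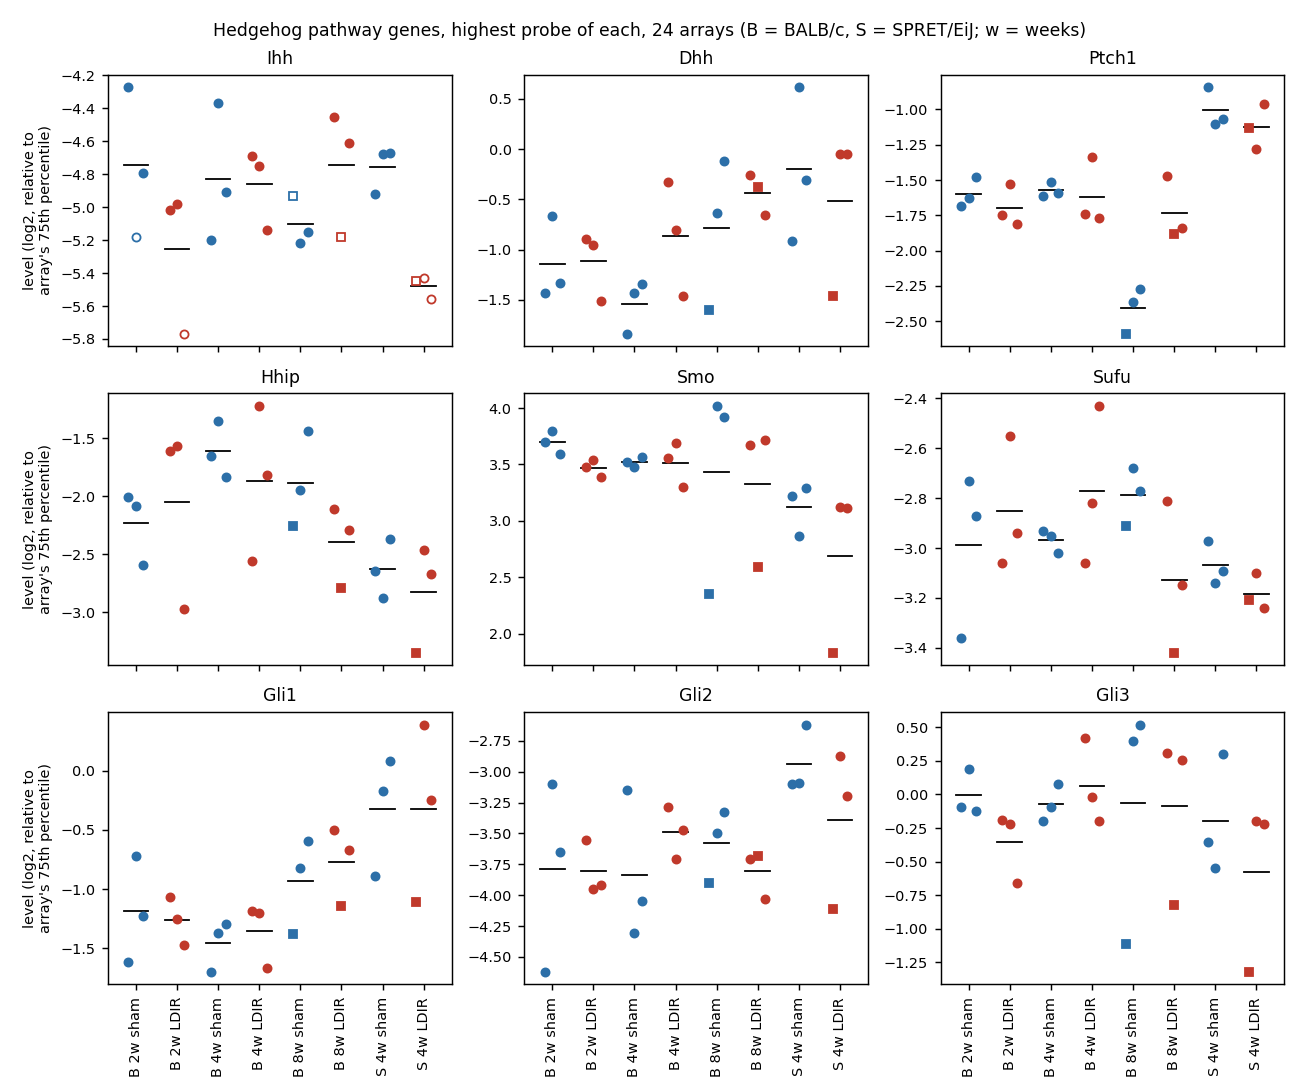
Level of each of the 9 genes by its highest probe on all 24 arrays (y axis, log2 relative to the array's 75th percentile; B is BALB/c, S is SPRET/EiJ, blue is sham, red is LDIR, bars are means of 3 mice). Open symbols are not above background and squares mark the 3 arrays with high lymphocyte genes, on which Smo and Gli3 were the lowest of their groups.

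Gli2, the main activator of the family, did not pass the thresholds in any comparison of LDIR with sham. In BALB/c its levels 2 weeks after sham exposure were -4.62, -3.10 and -3.65, and after LDIR -3.55, -3.95 and -3.92. At 4 weeks sham levels were -3.15, -4.31 and -4.05 and LDIR levels -3.29, -3.71 and -3.47. At 8 weeks sham levels were -3.90, -3.50 and -3.33 and LDIR levels -3.71, -3.68 and -4.03. The LDIR and sham groups overlapped at each time. The difference, LDIR minus sham, was -0.02 (SE 0.389) at 2 weeks, 0.35 (SE 0.326) at 4 weeks and -0.23 (SE 0.261) at 8 weeks, none of which passed the thresholds (limma, adjusted p = 0.996, 0.792 and 1). In SPRET/EiJ the sham levels -3.10, -3.09 and -2.62 and the LDIR levels -4.11, -2.87 and -3.20 gave -0.46 (SE 0.376, adjusted p = 0.972), and -0.10 without the LDIR array with high lymphocyte genes. Whether the Gli2 change differed between strains was tested directly, and the difference of 0.81 (SE 0.519) did not pass (limma adjusted p = 0.955). Without BALB/c sham mouse A alone it was 1.15 and passed. An exact permutation of labels within strains, whose null is no LDIR effect in either strain, gave p = 0.155 with all arrays.

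At 2 weeks after LDIR, 1 of the 14 probes passed an unadjusted p of 0.05 and a 1.5-fold change (0.585 on the log2 scale), against 3.05% of all 55681 probes, and none passed after Benjamini-Hochberg adjustment. Beside that test an exact permutation test is given, which with 3 against 3 arrays cannot go below 0.1. This was probe 2 of Smo, the signal transducer, at 1.59, 1.40 and 1.65 in sham mice and 1.96, 2.10 and 2.38 in LDIR mice. The groups did not overlap, and the difference was 0.60 (SE 0.171, limma p = 0.0119, adjusted p = 0.869, exact permutation p = 0.1). Probe 1 of Smo went the other way, from 3.70, 3.80 and 3.59 in sham mice to 3.48, 3.54 and 3.39 in LDIR mice, also without overlap, but its difference of -0.23 (SE 0.138, adjusted p = 0.869) did not pass. The direction of Smo at 2 weeks therefore depended on the probe, and the part of probe 2's CA repeat in this was not tested. Without LDIR mouse C the Smo difference was 0.48 and without sham mouse B 0.52, both under 1.5-fold. Without LDIR mouse C, Hhip probe 1 passed instead, with a difference of 0.64. No label pairs the arrays, and the fit above was unpaired. With the letter as a block 2 of the 14 probes passed, against 3.73% of all probes. These were Smo probe 2 and Hhip probe 2 (a difference of 0.94), both with a limma adjusted p = 0.731, the latter above background on 0 of these 6 arrays. Gli3, the pathway's repressor, was -0.09, 0.19 and -0.12 in sham mice and -0.19, -0.22 and -0.66 in LDIR mice. Those groups did not overlap, but the difference of -0.35 (adjusted p = 0.869) did not pass. The median difference of the 14 probes was 0.00, against -0.02 for all probes.

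At 4 weeks after LDIR, 0 of the 14 probes passed in BALB/c, against 4.83% of all probes (10.8% without sham mouse C), and 0 had an unadjusted limma p under 0.05. The methods' t-test called 0 as well. The Schwann cell ligand Dhh had the largest difference, from -1.84, -1.43 and -1.34 in sham mice to -0.33, -0.80 and -1.46 in LDIR mice. The groups overlapped, since LDIR mouse C lay within the sham range, and the difference of 0.68 (SE 0.317, limma adjusted p = 0.775, exact permutation p = 0.3) passed only without that mouse, at 0.97. A list of 6 Schwann cell genes averaged 1.15 to 1.52 in the sham and 1.35 to 2.07 in the LDIR arrays, which overlap. A list of 5 macrophage genes averaged 1.62 to 2.55 and 2.73 to 3.33, without overlap. The part of either list in the Dhh difference was not tested. Gli2 passed without sham mouse A, at 0.70. The median difference of the 14 probes was 0.12, against 0.02 for all probes.

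At 8 weeks after LDIR, 1 of the 14 probes passed, against 1.92% of all probes. It was probe 1 of Ptch1, the receptor and target gene, at -2.59, -2.36 and -2.27 in sham mice and -1.47, -1.88 and -1.84 in LDIR mice. Every LDIR mouse lay above every sham mouse, and the difference was 0.68 (SE 0.241, limma p = 0.031, adjusted p = 1, exact permutation p = 0.1). Probe 2 of Ptch1 was -1.95, -3.64 and -3.80 in sham mice and -3.08, -3.74 and -3.03 in LDIR mice, a difference of -0.15 (SE 0.556). The high sham value was that of mouse A, which had high lymphocyte genes. Without the arrays of sham mouse A and LDIR mouse B, both Ptch1 probes passed, with 0.66 each (SE 0.216 and 0.181), as did Ihh with 0.66 (SE 0.181), all with a limma adjusted p = 0.968. In that fit 2423 of all 55681 probes passed, and only 4 of the 14 member differences were above 0. The median difference of the 14 probes was -0.17 with and without those arrays, where that of all probes was -0.14 with them and -0.01 without. With the slide as a block the Ptch1 probe 1 difference was 0.94 (SE 0.338, adjusted p = 1), which rests on LDIR mouse A, the 1 LDIR array on the slide of the sham arrays. With 1 array left out at a time it was 0.55 to 0.75 and still passed only without LDIR mouse B. A list of 6 hormone response genes (Pgr, Areg, Wnt4, Tnfsf11, Prlr and Greb1) also separated these groups. It averaged 1.15 to 1.98 in the sham and 0.04 to 0.64 in the LDIR arrays. The labels give no stage of the estrous cycle, and the part of hormone state in the Ptch1 difference was not tested.

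The target genes Gli1 and Hhip did not pass at 8 weeks, nor did Sufu. Gli1 probe 1 was -1.38, -0.82 and -0.59 in sham and -0.50, -1.14 and -0.67 in LDIR mice, overlapping groups with a difference of 0.16 (SE 0.320, adjusted p = 1). Hhip probe 1 was -2.26, -1.95 and -1.44 in sham and -2.11, -2.79 and -2.29 in LDIR mice, a difference of -0.51 (SE 0.326, adjusted p = 1). Sufu probe 2 was -2.80, -2.83 and -2.73 in sham and -3.03, -3.27 and -2.86 in LDIR mice. These groups did not overlap, yet the difference of -0.27 (SE 0.224, adjusted p = 1) was under 1.5-fold. Probe 2 of Gli1 was well above background only in sham mouse A, at -2.44, and between -7.72 and -5.58 on the other 23 arrays.

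**Figure D2:**
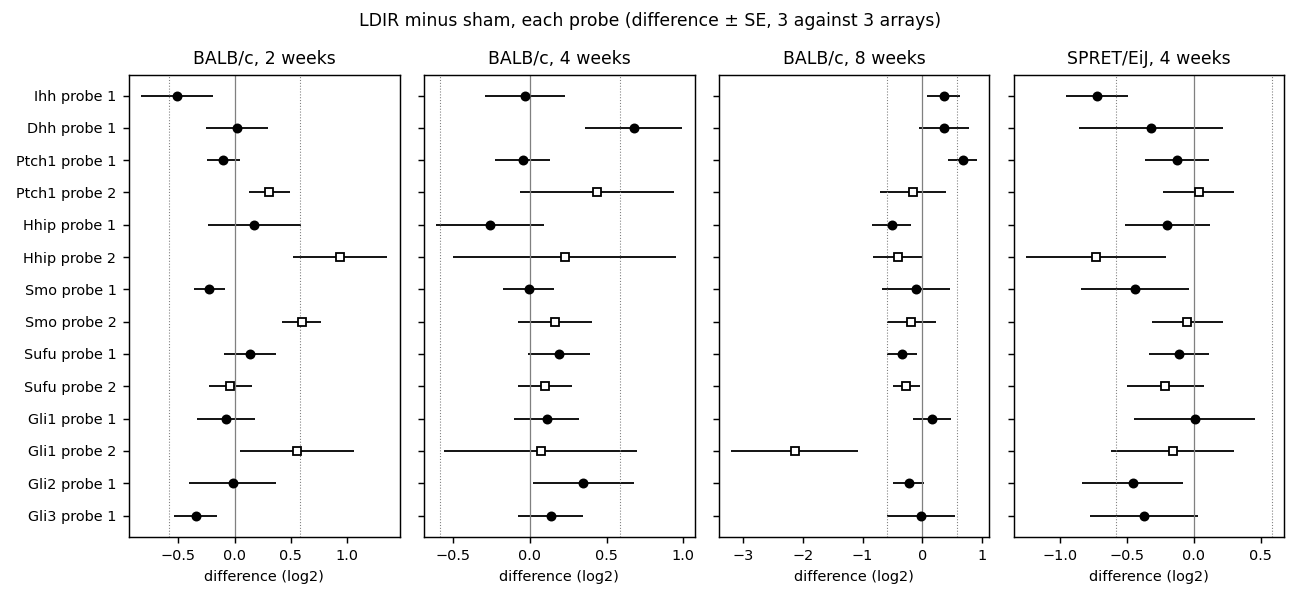
Difference between LDIR and sham (x axis, log2) for each of the 14 probes in the 4 comparisons, with 1 SE on either side, filled circles for the highest probe of a gene and open squares for its second probe; dotted lines mark 1.5-fold. Smo probe 2 at 2 weeks, Ptch1 probe 1 at 8 weeks and Ihh in SPRET/EiJ are the probes that passed.

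Ptch1 also varied with time in the sham mice. Its probe 1 averaged -1.60 ± 0.10 (SD, n = 3) in sham mice at 2 weeks, -1.57 ± 0.05 at 4 weeks and -2.41 ± 0.17 at 8 weeks, while LDIR mice averaged -1.70 ± 0.15, -1.62 ± 0.24 and -1.73 ± 0.23. Across the 9 sham arrays Ptch1 probe 1 differed by time (limma F-test p = 0.00204, adjusted p = 0.0737, exact permutation p = 0.025, -0.81 at 8 against 2 weeks), the only 1 of the 14 probes to do so at an unadjusted p of 0.05, where 16.5% of all probes did. The LDIR change of this probe also differed among the 3 times (limma F-test p = 0.0103, adjusted p = 1, exact permutation p = 0.0265 with labels permuted within times), against 3.74% of all probes and again 1 of the 14. The null of that permutation within times is no LDIR effect at any time, so only the F-test addresses the difference among times. Probe 2 of Ptch1 averaged -2.51 ± 0.22, -2.97 ± 1.03 and -3.13 ± 1.02 in the same sham groups (exact permutation p = 0.657). The 8-week sham arrays were all on slide 2 and the 2-week sham arrays all on slide 1, so slide and time cannot be told apart in that contrast, and only the 4-week sham arrays lay on both slides. With the slide as a random block the adjusted p of Ptch1 probe 1 was 0.0191, but the estimated slide correlation was -0.115 and the share of all probes that passed was 24.9%. Without sham mouse A at 8 weeks, Dhh (0.76, limma adjusted p = 0.14) and Gli3 (0.47, adjusted p = 0.225) also differed by time in the sham arrays at the unadjusted threshold, both higher at 8 than at 2 weeks. That made 3 of the 14 probes, near the 21.3% of all probes that did so without that mouse. The tissue markers of the sham groups also varied with time. The 6 white adipocyte genes averaged 7.35 ± 0.18 (SD), 7.18 ± 0.20 and 6.42 ± 0.55 at 2, 4 and 8 weeks. A list of 5 macrophage genes averaged 2.17 ± 0.55, 2.20 ± 0.51 and 2.95 ± 0.10. Their part in the time difference of Ptch1 was not tested.

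In SPRET/EiJ, 1 of the 14 probes passed after LDIR, against 2.21% of all probes. Ihh, the ligand of cartilage and gut, was -4.92, -4.68 and -4.67 in sham mice and -5.45, -5.43 and -5.56 in LDIR mice, without overlap. It was above background on all 3 sham arrays and on 0 of the 3 LDIR arrays, so the LDIR level is only a bound. On LDIR mouse C, where 57.1% of probes were above background, the lowest level well above it was -4.34, higher than every sham level of Ihh, so a level like that of sham mice would not have been detected on that array. With each LDIR level raised to the lowest level well above background on its array, where it lay under that, Ihh was 1.24-fold higher in sham. This is no strict minimum, since Ihh at -5.45 on LDIR mouse A was not detected though the lowest such level there was -5.74. The measured difference was -0.72 (SE 0.230, limma p = 0.0163, adjusted p = 0.972, exact permutation p = 0.1), and -0.74 without the LDIR array with high lymphocyte genes. With normexp background correction it was -0.16 and did not pass, and without sham mouse C it was -0.68 and did not pass either. In BALB/c the Ihh differences were -0.51, -0.03 and 0.36 at 2, 4 and 8 weeks (SE 0.320, 0.262 and 0.279), none of which passed. The strain difference in the LDIR change of Ihh was 0.69 (SE 0.339, limma adjusted p = 0.955), and in that test 0 of the 14 probes passed, against 3.59% of all probes, with 0 at an unadjusted limma p under 0.05. For Ihh an exact permutation of labels within strains, whose null is no LDIR effect in either strain, gave p = 0.105. The members' median LDIR difference in SPRET/EiJ was -0.21, against 0.03 for all probes, and 13 of the 14 differences lay higher in BALB/c than in SPRET/EiJ at 4 weeks, with a median gap of 0.36 against 0.02 for all probes. Without the SPRET/EiJ LDIR array with high lymphocyte genes the median in SPRET/EiJ was -0.07, against 0.06 for all probes, and 11 of the 14 differences lay higher in BALB/c, with a median gap of 0.27 against -0.03. The 14 probes share the same arrays and are not replicates, and the share of all probes with a higher difference in BALB/c was not computed. At 4 weeks the BALB/c LDIR arrays were on slide 2, the BALB/c sham arrays on slides 1 and 2 and all SPRET/EiJ arrays on slide 3, so slide is not separate from these gaps.

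The remaining LDIR differences of the members were small against their errors. Gli1 probe 1 gave -0.07 (SE 0.259) at 2 weeks, 0.11 (SE 0.212) at 4 weeks and 0.01 (SE 0.453) in SPRET/EiJ. Hhip probe 1 gave 0.18 (SE 0.413), -0.26 (SE 0.352) and -0.20 (SE 0.319) in the same comparisons. Without the SPRET/EiJ array with high lymphocyte genes, Gli1 gave 0.40 (SE 0.379), Hhip 0.06 (SE 0.241), Gli3 -0.01 (SE 0.307) and Dhh 0.15 (SE 0.465) there. Gli3 gave 0.14 (SE 0.212) at 4 weeks, -0.02 (SE 0.563) at 8 weeks and -0.38 (SE 0.404) in SPRET/EiJ. The wide error at 8 weeks went with the arrays with high lymphocyte genes, on which Gli3 was low. Sufu probes 1 and 2 stayed between -0.34 and 0.19 in all 4 comparisons, none of which passed, and Dhh gave 0.36 (SE 0.419) at 8 weeks and -0.32 (SE 0.537) in SPRET/EiJ.

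Between sham mice of the 2 strains at 4 weeks, 0 of the 14 probes passed the study's limit of an unadjusted p of 0.001 with a 1.5-fold change, which 8.89% of all probes passed. An unadjusted limma p under 0.05 was held by 7 of the 14, against 17848 of all 55681 probes. At an adjusted p of 0.05, 3 of the 14 passed, against 18.8% of all probes. Gli1 probe 1 was higher in SPRET/EiJ, at -0.89, -0.17 and 0.08 against -1.70, -1.37 and -1.30 in BALB/c, without overlap, and BALB/c minus SPRET/EiJ was -1.13 (SE 0.289, limma adjusted p = 0.0408). Hhip probe 1 was lower in SPRET/EiJ, at -2.64, -2.88 and -2.37 against -1.65, -1.35 and -1.83, a difference of 1.02 (SE 0.216, limma adjusted p = 0.0223). Its dim probe 2 went the other way, at -1.58 (adjusted p = 0.0884), and was above background on 2 SPRET/EiJ and 0 BALB/c sham arrays. By the estimate used for Ihh, no strict minimum either, it was 1.43-fold higher in SPRET/EiJ. Sufu probe 2 was -3.71, -4.10 and -4.28 in SPRET/EiJ and -2.85, -3.18 and -2.86 in BALB/c, a difference of 1.06 (SE 0.214, limma adjusted p = 0.0187), while Sufu probe 1 differed by 0.10 (SE 0.151, adjusted p = 0.683). These 3 probes were near the share of all probes, with that of Gli1 higher and those of Hhip and Sufu lower in SPRET/EiJ. The second probe of Hhip went the other way, and the other probe of Sufu did not pass. In alternative settings other than leaving out an array, the adjusted p stayed under 0.05 in 9, 6 and 9 for Gli1, Hhip and Sufu, and did not in 2, 5 and 2. With 1 array left out at a time these differences were -1.41 to -0.93, 0.89 to 1.15 and 0.94 to 1.22, and their adjusted p stayed under 0.05 only without SPRET/EiJ mouse A for Gli1, without BALB/c or SPRET/EiJ mouse C for Hhip, and without BALB/c mouse B or SPRET/EiJ mouse A for Sufu.

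Gli2 lay in the direction of Gli1 between strains, with a mean of -2.94 ± 0.27 (SD, n = 3) in SPRET/EiJ and -3.84 ± 0.61 in BALB/c sham mice, without overlap, but BALB/c mouse A lay next to the SPRET/EiJ mice and the difference of -0.90 (SE 0.339, limma adjusted p = 0.125) did not pass. Without that mouse it was -1.25 with an adjusted p = 0.0332. Dhh averaged -0.20 ± 0.77 and -1.54 ± 0.27, a difference of -1.34 (SE 0.400, adjusted p = 0.0665). Ptch1 probe 1 was -0.84, -1.10 and -1.07 in SPRET/EiJ and -1.61, -1.51 and -1.59 in BALB/c, a difference of -0.57 (SE 0.160, adjusted p = 0.0558), and its probe 2 lay 0.72 in the other direction and did not pass. Smo probes 1 and 2 differed by 0.40 (SE 0.179) and -0.47 (SE 0.256), Gli3 by 0.14 (SE 0.257) and Ihh by -0.07 (SE 0.250), none of which passed. The SPRET/EiJ arrays were all on slide 3 and the BALB/c sham arrays on slides 1 and 2, so no slide gives a value of its own. In a fit of all 24 arrays with the slide as a block, Gli1 probe 1 had -1.39 (adjusted p = 0.408), Hhip probe 1 0.37 (adjusted p = 0.925) and Sufu probe 2 1.13 (adjusted p = 0.207). The luminal epithelial genes averaged 2.10 ± 1.41 in SPRET/EiJ and 3.80 ± 0.57 in BALB/c sham mice, and whether SPRET/EiJ transcripts match the probes base for base was not tested.

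**Figure D3:**
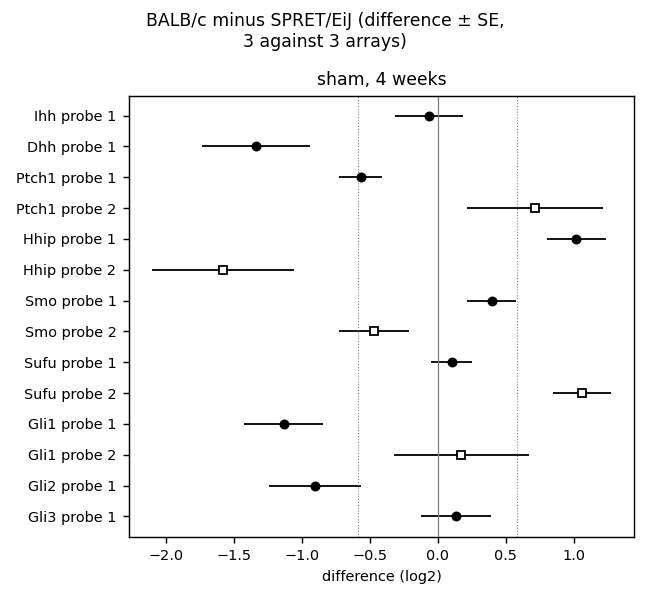
Difference between sham BALB/c and sham SPRET/EiJ at 4 weeks (x axis, log2, with 1 SE on either side) for the 14 probes, filled circles for the highest probe of a gene and open squares for its second probe; dotted lines mark 1.5-fold. The paired probes of Gli1, Ptch1, Hhip and Smo lie on opposite sides of 0.

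Whether Gli1, Ptch1 and Hhip followed Gli2 was examined mouse by mouse, as the deviation of each array from its group mean. The correlation of Gli2 with Gli1 over the 24 arrays was r = 0.59 (permutation p = 0.0275) and rho = 0.57 (p = 0.0224), neither past 0.05 after adjustment over the 36 coefficients of this family (adjusted p = 0.495 for both). It was 0.40 within the 18 BALB/c arrays (permutation p = 0.249) and 0.91 within the 6 SPRET/EiJ arrays (exact permutation p = 0.0833). Within slides 1, 2 and 3 it was 0.53, 0.65 and 0.80, with exact permutation p = 0.389, 0.194 and 0.125. Left without the 2 arrays farthest from the median of Gli2, sham mouse A of BALB/c at 2 weeks and LDIR mouse A of SPRET/EiJ, r was 0.28 (permutation p = 0.239) while rho was 0.51 (p = 0.0426), so the linear relation rested on those arrays. Without the 3 arrays with high lymphocyte genes r was 0.45 (permutation p = 0.146).

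Over the 24 arrays the correlations of Gli2 with Ptch1 and Hhip did not pass, and whether they differ from that with Gli1 was not tested. For Ptch1 r was -0.04 (permutation p = 0.835) and rho -0.08 (p = 0.737), with 0.03 in BALB/c and -0.26 in SPRET/EiJ, and within slides 1, 2 and 3 it was -0.06, 0.06 and -0.27. For Hhip r was 0.16 (permutation p = 0.46) and rho 0.17 (p = 0.455), with -0.07 in BALB/c and 0.97 over the 6 SPRET/EiJ arrays (exact permutation p = 0.0556), and -0.09, -0.09 and 0.75 within slides 1, 2 and 3. Adjusted over the family, p was 0.924 and 0.788 for the 24-array r of Ptch1 and Hhip and 0.5 for that of Hhip in SPRET/EiJ. The dim probe 2 of Hhip gave r = 0.48 (permutation p = 0.0787) and rho = 0.41. Without the 2 arrays farthest in Gli2, r was -0.20 for Ptch1 and 0.11 for Hhip. Relations of this size could not be separated from 0 with these arrays, which does not show that they are absent.

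**Figure D4:**
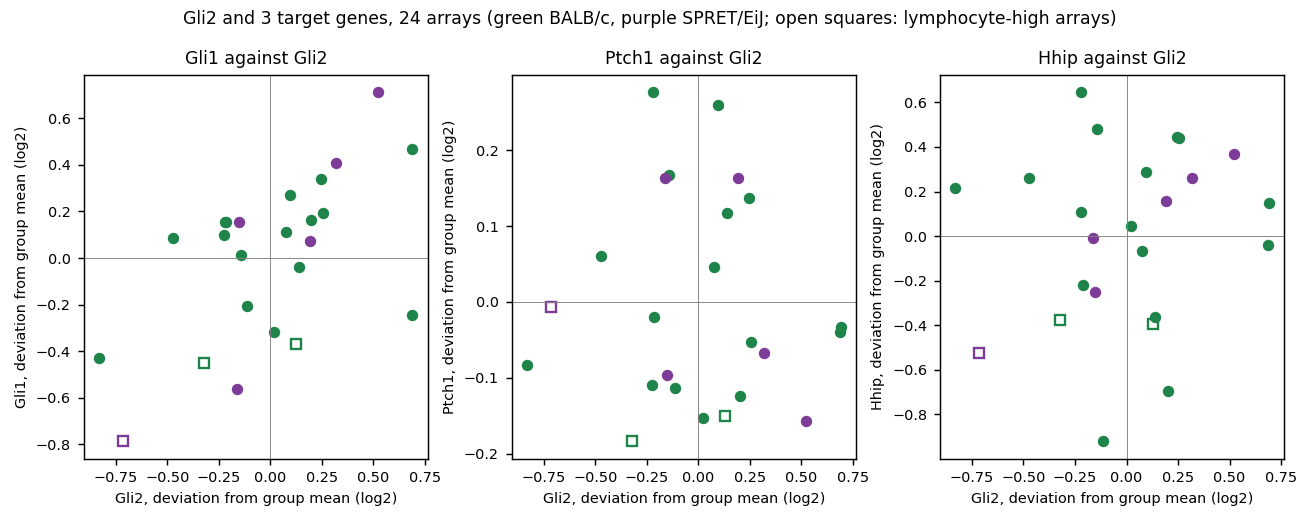
Deviation of Gli1, Ptch1 and Hhip (y axes, log2) from their group means against that of Gli2 (x axis, log2) on 24 arrays, green for BALB/c, purple for SPRET/EiJ, open squares for the 3 arrays with high lymphocyte genes. Gli1 rises with Gli2 (r = 0.59), largely through the arrays at the lower left, and Ptch1 does not (r = -0.04).

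Gli1 lay closer to Dhh than to Gli2 by these deviations, described here without a test of the difference and chosen after the values of all 36 pairs of members were seen. Over the 21 arrays without high lymphocyte genes the pair Gli1 and Dhh had r = 0.72 and rho = 0.72, and 0.80 over all 24. Gli1 had 0.60 (rho = 0.68) with Gli3 and 0.45 (rho = 0.44) with Gli2 over the 21 arrays. Gli1 and Dhh both varied with the Schwann cell genes, none of which is a member, at r = 0.71 (rho = 0.67) for Dhh and 0.62 (rho = 0.56) for Gli1 over the 21 arrays. Gli2 had 0.07 with that list over the 21 arrays and 0.41 over all 24. With the fibroblast genes (Col1a1, Col1a2, Col3a1, Pdgfra, Dcn and Lum) Gli2 had 0.65 (rho = 0.56), Gli1 0.49 (rho = 0.45) and Gli3 0.50 (rho = 0.50) over the 21 arrays. These lists were picked from more, and others had values of like size. Dhh had 0.53 with the macrophage, -0.57 with the basal and -0.51 with the luminal epithelial genes. Gli2 had 0.52 with the macrophage and Gli3 -0.59 with the white adipocyte genes. All values of an array share its tissue piece, its labelling and its scaling.

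On the 3 arrays with high lymphocyte genes the levels of Smo and Gli3 were the lowest of their groups. Smo probe 1 was 2.35 in sham mouse A of BALB/c at 8 weeks against 4.02 and 3.92 in the other mice of that group, 2.59 in LDIR mouse B against 3.67 and 3.72, and 1.83 in LDIR mouse A of SPRET/EiJ against 3.12 and 3.11. Gli3 was -1.11 against 0.40 and 0.52, -0.82 against 0.31 and 0.26, and -1.32 against -0.20 and -0.22 in the same mice. Probe 1 of Gli1 and of Hhip was also the lowest of its group in all 3. With these arrays Smo and Gli3 correlated at r = 0.94, and without them at 0.66 (rho = 0.52), while their r with the lymphocyte genes went from -0.95 and -0.87 to 0.07 and 0.06, so the pooled values rest on these 3 arrays. Smo probe 2 was not lower there, at 2.18, 1.90 and 2.07.

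**Figure D5:**
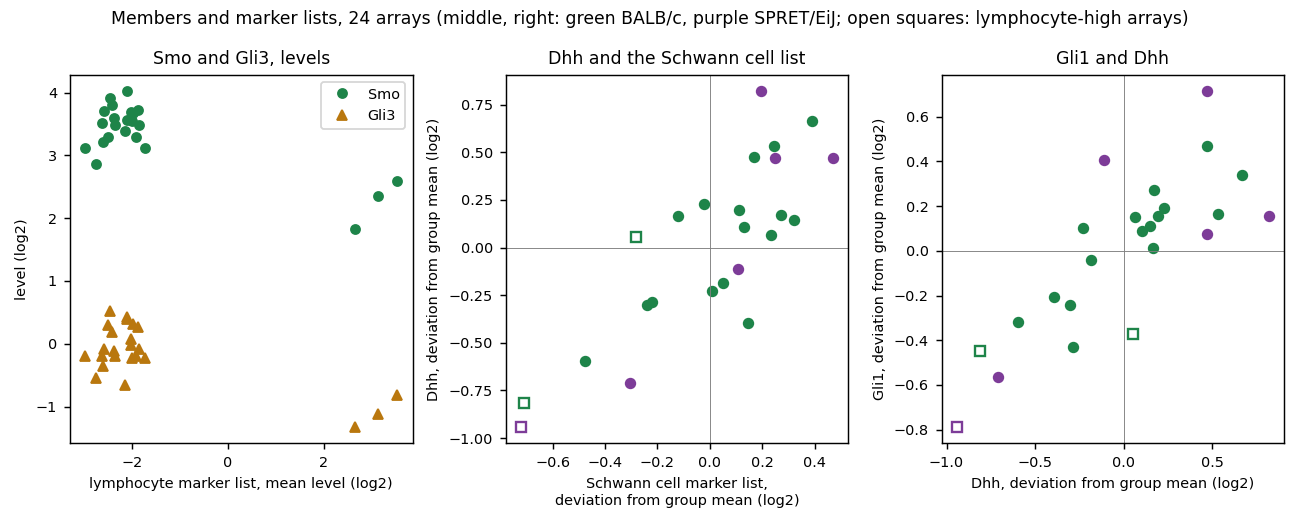
Left, level of Smo (circles) and Gli3 (triangles) by their highest probe (log2) against the mean level of 6 lymphocyte genes (log2) on 24 arrays, with 3 arrays apart at the right. Middle and right, deviations from group means (log2) of Dhh against the Schwann cell list and of Gli1 against Dhh, which rise together; green is BALB/c, purple SPRET/EiJ, open squares the same 3 arrays.

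The genes whose deviations over the 24 arrays were most like those of a member were sought among 21381 genes above background on every array. Gli2 was most like Sumo3 (r = 0.85), Pde6d (0.82) and 2310044H10Rik (0.82). Gli1 was most like Il1rl1 (0.86), Prima1 (0.85) and Lrrc8a (0.85), and Ptch1 like Bcl6b (0.80), Sema6a (0.79) and Dock4 (0.75). The median over all genes was 0.03, 0.11 and 0.01 in turn. No other member was among these genes.

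Other genes of the pathway were described by 7 lists chosen for their roles, each gene by its highest probe. After LDIR at 2 weeks 0 genes of any list passed: 0 of 3 ligands, 0 of 5 genes of ligand release, 0 of 7 receptors and co-receptors, 0 of 17 cytoplasmic and ciliary regulators, 0 of 7 genes of cilium assembly, 0 of 3 Gli factors and 0 of 13 known targets. At 4 weeks Scube3, which helps to release ligand, was 1 of 5 of its list to pass, where 4.83% of all probes did. It fell by 0.60 (SE 0.225, limma adjusted p = 0.775). At 8 weeks Ptch1 alone passed, and in SPRET/EiJ Ihh alone. The median LDIR difference of the 13 targets at 2, 4 and 8 weeks in BALB/c was 0.18, -0.05 and 0.01, where that of all probes was -0.02, 0.02 and -0.14. The SPRET/EiJ medians were -0.04 and 0.03. Between strains, where 8.89% of all probes passed, 1 of the 13 targets was higher and 1 lower in BALB/c, 1 of the 7 receptors and co-receptors was lower, 1 of the 17 regulators was higher, and 0 genes of the other lists passed. Of these, Mycn, a proliferation factor among the targets, was higher in BALB/c by 1.93 (SE 0.287, limma adjusted p = 0.00634) and Arrb2, an arrestin, was higher by 1.57 (SE 0.178, adjusted p = 0.00227). Kif7, 1 of the 17 regulators, passed in the strain difference of the LDIR change (0.60, SE 0.260, limma adjusted p = 0.955), where 3.59% of all probes did.

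The study predicted GLI2 as an upstream regulator at 2 and 4 weeks, after it set aside genes that vary with the estrous cycle. That prediction came from changed genes and is not a measure of Gli2 RNA. The study listed genes under GLI2 at both times, and since it chose them on these samples their counts are not independent evidence of a direction. Of 5 measured genes of the 2-week list, Cxcl5 (1.44), Krt1 (1.02) and Ccl22 (0.87) rose and Foxa2 (-1.16) fell at 2 weeks. Smo, the remaining gene, did not pass by its highest probe, though its probe 2 did. Of 6 genes of the 4-week list, Ccr1 (2.37), Pax2 (1.43), Ccr4 (0.99) and Il10 (0.82) rose and Ntn1 (-0.71) fell at 4 weeks. In SPRET/EiJ 0 of the 5 and 0 of the 6 passed.

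RefSeq promoters of 300 bases (250 before to 50 after the start, GRCm38.p6) were at hand for 8 of the 9 members, not for Gli1. The Gli binding word TGGGTGGTC, searched on both strands, was in 0 of these 8 and in 0.253% of all 32851 promoters, which says only that these letters are not in this window.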

How the data were processed

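RNA of each of 24 mice was hybridised to its own 1-colour Agilent array. The authors deposited the scanner's processed intensity, background-subtracted by the Feature Extraction software, and a table of log2 values normalized by the authors to the 75th percentile in GeneSpring GX, used as an alternative. From the intensity the log2 was taken, 3777 outlier spots over all arrays were left out (0 of the members), spots of a probe averaged and the array's 75th percentile subtracted, and 99.8% of the authors' values lay within 0.01 of the result after centring. Positions are those of the files (mm9).

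Each comparison was fitted over all 55681 probes with limma 3.58.1 in R 4.3.3, with Benjamini-Hochberg adjustment over them. A probe passed at an unadjusted p under 0.05 (0.001 between strains) and a change over 1.5-fold, the thresholds of the methods, and across times at p under 0.05. Correlations used 100000 permutations, or all of them under 10 arrays, two-sided and within groups, except for levels within a strain, where LDIR and sham arrays were permuted together. Figures were drawn with matplotlib 3.10.9. The scripts were tested on simulated data. Mice are labelled A to C within a group. No label pairs arrays by letter and the main fits were unpaired. The letter was a block only in an alternative, run for every comparison. Same-letter arrays deviated together at 2 weeks, with correlations of 0.141, 0.442 and 0.101 over 34664 probes above background on the 6 arrays (0.013, 0.140 and -0.031 over all probes). At 8 weeks letters A, B and C gave -0.559, -0.567 and 0.544 over 33437 such probes, so the letter is no known feature of the design.

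A gene is given by its highest probe over all arrays, with the other beside it. Other pathway genes are named where they passed (1 of them is not reported here), and genes like a member by the 3 highest correlations. The members, lists and tests were chosen with earlier results of these data known. Alternatives were the use of outlier spots, normexp correction (offset 50), only probes above background, quantile normalization, the table of the authors, an adjusted p, the methods' t-test, blocks for replicate letter and slide, 1 fit of every array, all 9 BALB/c sham arrays as the strain control, and each array left out. The omission of the 3 arrays with high lymphocyte genes was added after the data were seen. With 3 arrays in a group, their number limits the precision.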

Additional observations from a re-analysis of the deposited data

Results flagged for a closer look

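The LDIR change of Ptch1 probe 1 differed among 2, 4 and 8 weeks in BALB/c by the F-test of that difference (limma F-test p = 0.0103, adjusted p = 1, exact permutation p = 0.0265 beside it). The null of the permutation is no LDIR effect at any time, so it is not itself a test of that difference. The LDIR minus sham difference was -0.10, -0.05 and 0.68 in turn, and probe 2 of Ptch1 gave 0.31, 0.44 and -0.15.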

How the results depend on the processing

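Normexp correction left 0 of the 14 probes passing at 2 and 8 weeks and in SPRET/EiJ, where the main setting had 1 each. Smo probe 2 (0.58, just under 1.5-fold) and Ptch1 probe 1 (0.45) kept their direction there. The replicate block gave 2 at 2 weeks and 1 at 8 weeks, where 2076 and 1389 of all 55681 probes passed. At 8 weeks Gli1 probe 2 passed and Ptch1 did not, and the block changed no other call of these 14 probes. All arrays in 1 fit gave 2 at 8 weeks and 1 between strains, where 2956 and 6939 of all 55681 probes passed. All 9 BALB/c sham arrays gave 1 between strains, where 6791 of all probes passed. The 1 between strains was Sufu probe 2 each time. An adjusted p gave 3 between strains. Quantile normalization gave 2 for the LDIR change across times (1902 of all 55680 probes), and the slide as a random block gave 2 across sham times (24.9% of all probes). Without the arrays with high lymphocyte genes there were 3 at 8 weeks and 3 across sham times, where 2423 and 11844 of all 55681 probes passed. Leaving out 1 array at a time gave 1 to 1, 0 to 1, 0 to 1 and 0 to 2 probes in the 4 LDIR comparisons, 0 to 0 between strains, 0 to 1 for the strain by LDIR term, 1 to 2 for LDIR across times and 1 to 3 for sham across times. The share of all probes was then 2.62% to 6.17% for the strain by LDIR term and 2.57% to 6.46% for LDIR across times. For sham across times it was 13.3% to 21.3%.

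The r of Gli2 with Gli1 kept its sign but no longer passed the permutation test within BALB/c (0.40), SPRET/EiJ (0.91) and slides 1 to 3 (0.53, 0.65, 0.80), without the 2 farthest arrays (0.28, where rho = 0.51 passed), without the lymphocyte-high arrays (0.45) and by levels in BALB/c (0.28). By levels in SPRET/EiJ it passed at 0.79 (exact permutation p = 0.0375), and it was -0.18 with Gli1 probe 2. Gli2 with Ptch1 changed sign with quantile normalization (0.36), within BALB/c (0.03) and slide 2 (0.06), by levels in SPRET/EiJ (0.02) and with Ptch1 probe 2 (0.03). Gli2 with Hhip was -0.07 in BALB/c, -0.09 on slides 1 and 2 and -0.05 without the lymphocyte-high arrays, and by levels in SPRET/EiJ it passed at 0.96 (exact permutation p = 0.00833). The cause was not tested. The share of all probes that passed ranged, over the settings other than leaving out each array in turn, from 0.505% to 3.73%, 1.07% to 5.55%, 0.248% to 5.31% and 0.235% to 3.77% in the 4 LDIR comparisons and from 2.67% to 13.7% between strains. With 1 array left out it was 3.17% to 4.35%, 3.95% to 10.8% (the highest without BALB/c sham mouse C at 4 weeks), 1.14% (without LDIR mouse C) to 3.37% (without sham mouse B), 1.91% to 4.63% (without LDIR mouse B) and 5.77% (without BALB/c mouse A) to 6.71%.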
